A study of Mus musculus with 4 samples.

Results

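The genes described here encode chromatin remodellers of the CHD, SWI/SNF and ISWI families (Chd3, Chd4, Chd5, Smarca4, Smarca5), the type II topoisomerases (Top2a, Top2b), and the enzymes that build and remove poly(ADP-ribose) (Parp1, Parp2, Parg). They were taken by symbol from the gene table, where each of the 10 symbols matched 1 of 28692 genes. Single cells from the testes of C57BL/6 mice aged 63 postnatal days were captured in droplets, and the 3' end of each polyadenylated RNA received a unique molecular identifier (UMI) before sequencing. Per the labels, 2 samples were Phf7 f/f, which carry the floxed allele alone, and 2 were Phf7 tKO, of the genotype Stra8-Cre:Phf7 f/f, in which the Stra8 promoter of the germ line drives Cre. Both genotypes carry the floxed Phf7 allele. Whether the samples came from separate animals is not stated.

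Remodellers use ATP to slide, evict or restructure nucleosomes. Type II topoisomerases cut both DNA strands and reseal them to relieve supercoils and separate chromosomes. PARP1 and PARP2 bind DNA breaks and attach chains of ADP-ribose to proteins, and PARG cuts those chains. In the testis these activities meet in the spermatid, where nucleosomes give way to transition proteins and then protamines, supercoils must be released, and transient DNA breaks appear. CHD5 is the member best known for a role in that exchange.

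The deposited matrix pooled 4 libraries, told apart only by a barcode suffix from 1 to 4, with 7539 to 8562 barcodes and 44447735 to 50353091 UMI each. The labels do not say which suffix is which sample, so the genotypes were not compared, the matrix was handled as 1 pooled sample, and no p-value is given. Of 31772 barcode sequences 497 occurred under more than 1 suffix. Cells were grouped with the 10 genes left out of the variable genes, and classes were named from marker genes, with the ending "-like" because they rest on markers alone. Germ cells comprised 343 spermatogonia-like cells, 308 early, 1779 pachytene and 768 late spermatocyte-like cells, and 6110 round and 9022 elongating spermatid-like cells. Somatic classes of at least 50 cells were 4275 Sertoli-like, 662 Leydig-like, 288 macrophage-like and 212 interstitial mesenchymal-like cells. Unnamed cells made up 20.3% of 29967 kept cells, from 16.8% in suffix 3 to 24.5% in suffix 1. Doublets must be assumed to remain, since the caller marked 1 cell.

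A level is given as the gene's UMI per 1000000 UMI of the class (CPM), and brackets hold exact 95% intervals, which cover counting error only. Because the method counts transcript ends, levels are compared for 1 gene between classes and not between genes. In sums over a class, deep cells weigh more than shallow ones. Each named class had the highest summed level of its own marker list among the 10 classes above except pachytene spermatocyte-like cells, whose list stood at 3787 CPM there and at 4163 CPM in late spermatocyte-like cells. Markers of elongating spermatids, led by the protamine and transition protein RNAs, were found in every class. Their sum was 171876 CPM in elongating spermatid-like, 23211 CPM in round spermatid-like and 46692 CPM in Sertoli-like cells, and 3180 CPM in late spermatocyte-like cells. The part of free RNA and doublets in these UMI, and in the levels of the 10 genes, was not tested.

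**Figure D1:**
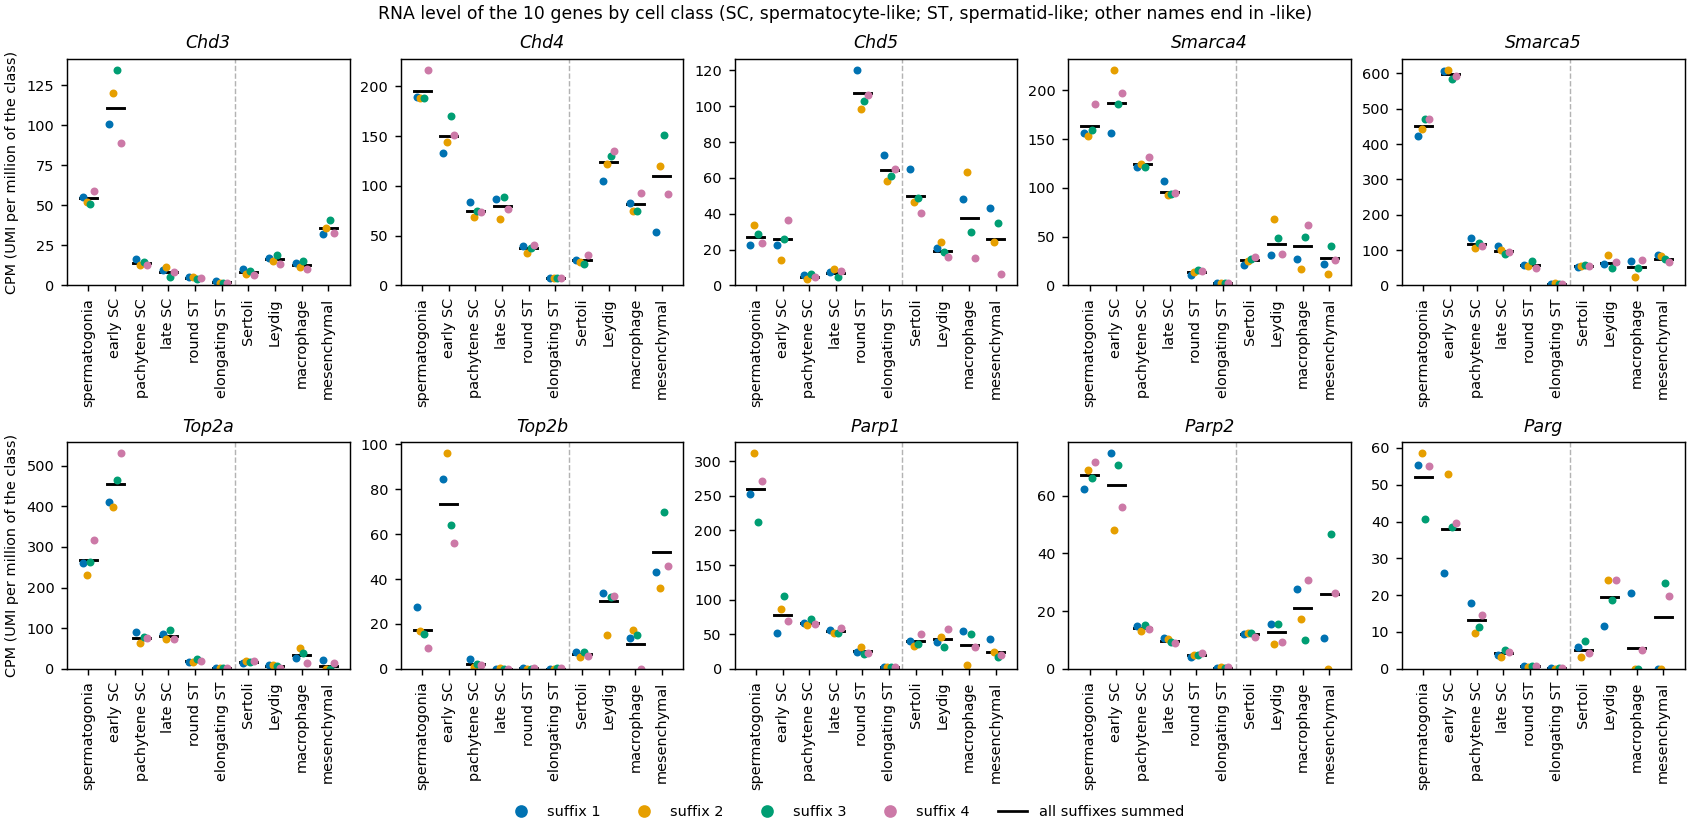
CPM of each of the 10 genes (vertical axes, linear, from 0) in the 6 germ cell classes and, right of the dashed line, 4 somatic classes. Points are the 4 library suffixes and bars the sum over all suffixes. Chd5 is highest in round spermatid-like cells at 107 CPM, and the other 9 genes are highest in spermatogonia-like or early spermatocyte-like cells among these classes.

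Of these genes 9 had their highest level, among classes of at least 50 cells, at the start of the series, and Chd5 had its own in round spermatid-like cells. Chd4, Parp1, Parp2 and Parg were highest in spermatogonia-like cells, and Chd3, Smarca4, Smarca5, Top2a and Top2b in early spermatocyte-like cells. The same class was highest in all 4 suffixes for 8 of these genes, in 3 suffixes for Top2b and in 2 for Parp2. For Smarca4, Top2b, Parp2 and Parg the highest class could not be told apart from the next by counting error. Counted per cell, 9 members in spermatogonia-like cells and 8 in early and in pachytene spermatocyte-like cells had an interval wholly above the highest somatic class of at least 50 cells. In round spermatid-like cells this held for 3, Chd5, Smarca5 and Top2a. In elongating spermatid-like cells it held for Chd5 alone, and 7 members had an interval wholly below the lowest such somatic class. In CPM, Chd5 in round spermatid-like cells stayed above every such somatic class, at 107 CPM against 49.7 CPM in Sertoli-like cells. Smarca5 did not, at 57.9 CPM there and 75.9 CPM in interstitial mesenchymal-like cells. Nor did Top2a, at 18.8 CPM there and 33.7 CPM in macrophage-like cells. Chd5 in spermatogonia-like cells was at 27 CPM, below the level of Sertoli-like cells. In pachytene spermatocyte-like cells Chd3, Chd4, Parp2 and Parg were below the highest such class in CPM, and Smarca4, Smarca5, Top2a and Parp1 above it. The counts per cell depend on depth, since the median was 6204 UMI in spermatogonia-like and 6448.5 UMI in elongating spermatid-like cells. It was 938 UMI in Sertoli-like and 2342 UMI in macrophage-like cells. The share of all genes passing the same test was not computed, so these counts do not set the members apart from other genes.

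Chd5 encodes a remodeller with paired chromodomains that is restricted in adult mice largely to neurons and male germ cells. The gene (ENSMUSG00000005045) spans chromosome 4 from 152338651 to 152390194 on the plus strand of GRCm38. The 250 bases before its first annotated start are shown because it is the member whose level is highest in spermatids. They lie at chr4:152338401-152338650 on the plus strand (RefSeq, GRCm38.p6), and capitals mark GC boxes, GGGCGG on either strand, the motif bound by Sp1 family factors.
Chd5: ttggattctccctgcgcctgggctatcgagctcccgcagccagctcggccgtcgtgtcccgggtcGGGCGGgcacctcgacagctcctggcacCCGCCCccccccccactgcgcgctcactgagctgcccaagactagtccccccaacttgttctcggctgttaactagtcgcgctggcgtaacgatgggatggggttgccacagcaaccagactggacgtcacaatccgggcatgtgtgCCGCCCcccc
The window held 3 GC boxes, and none of the letters CCAAT, TGACGTCA (the cAMP response element), TATAAA or an NRF1 site (GCGC and TGCGC with 1 free base between them), each searched on both strands. Of 32851 promoter windows of this length 32.7% held a GC box, 33.8% CCAAT, 1.55% TGACGTCA, 3.74% the NRF1 site and 12.4% TATAAA. The window had 67.2% G and C, against a median of 52.4% over all windows.

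Chd5 stood at 120.4, 98.6, 103 and 106 CPM in round spermatid-like cells of suffixes 1 to 4. Late spermatocyte-like cells stood at 7.36, 9.04, 4.42 and 8.18 CPM, so the suffixes of these classes did not overlap. The pooled levels were 107 (105 to 110.4) and 7.12 (5.63 to 8.88) CPM, a log2 ratio of 3.92 (3.59 to 4.26), or 15.1-fold. With the cells clustered at the coarser resolution of 0.5, the log2 ratio was 0.99, still higher but just under 2-fold. Elongating spermatid-like cells stood at 72.9, 58.4, 61.2 and 64.8 CPM, each below the round spermatid-like level of its own suffix. The class as a whole was at 64.5 CPM (62.7 to 66.3), 1.67-fold lower than round spermatid-like cells.

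Per cell, Chd5 had 0.855 UMI in round spermatid-like (0.832 to 0.878) and 0.548 in elongating spermatid-like cells (0.532 to 0.563). Somatic classes of at least 50 cells ran from 0.0613 in Sertoli-like to 0.0938 in macrophage-like cells. A UMI was found in 41% of round spermatid-like, 32% of elongating spermatid-like, 5.92% of Sertoli-like and 8.85% of late spermatocyte-like cells. Once each cell was thinned to 1000 UMI these shares became 13.3%, 4.89%, 4.63% and 1.04%. Too shallow for this were 288 round spermatid-like, 43 elongating spermatid-like and 2524 Sertoli-like cells. The thinned share of round spermatid-like cells was thus well above that of Sertoli-like cells, while that of elongating spermatid-like cells was close to it.

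Within round spermatids Chd5 differed between clusters. Clusters are ordered here by the summed elongating spermatid markers, an order chosen after the values were seen and one that free RNA and depth also move. In cluster 18, with the lowest sum at 6240 CPM and a median of 27123.5 UMI, Chd5 was at 65 CPM (61.3 to 68.8). Cluster 5 stood at 97.5 CPM, cluster 12 at 176 CPM, cluster 6 at 134 CPM and cluster 20, with a median of 29928 UMI, at 117 CPM. Cluster 15, with the highest sum at 60033 CPM, reached 215 CPM (198 to 234), 3.32-fold the level of cluster 18 and higher in 4 of 4 suffixes. Its suffixes stood at 253, 188, 209 and 197 CPM, against 70.7, 61.2, 62.1 and 64.9 CPM in cluster 18. Cluster 13, 1000 cells that scored between round and elongating spermatids and stayed unnamed, was at 231 CPM (209 to 253), the highest level of any cluster of at least 50 cells.

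Elongating spermatid-like clusters were set in order by the ratio of Tnp1 to Prm2, since transition protein RNA is known to decline before protamine RNA. Clusters 2, 8 and 17, with ratios of 0.353, 0.348 and 0.268, held Chd5 at 98.1, 65.8 and 91.9 CPM. Other markers place cluster 17 before clusters 2 and 8. Its round spermatid marker sum was 621 CPM, against 358 and 116 CPM, and its elongating spermatid sum 127925 CPM, against 177712 and 210396 CPM. Ratios near that of cluster 17 were also found outside spermatids, at 0.253 in pachytene spermatocyte-like cluster 9 and 0.242 in Leydig-like cluster 22. Clusters 10 and 4, with ratios of 0.067 and 0.0496, held 24.4 and 37.8 CPM. Cluster 3, where Tnp1 was at 728 CPM and Prm2 at 133649 CPM, held 13.5 CPM (11.4 to 15.8), with 16, 7.56, 11.6 and 18.2 CPM in suffixes 1 to 4. Cluster 2 was 7.3-fold higher than cluster 3, in 4 of 4 suffixes.

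Before the spermatid stage Chd5 was low. Pachytene spermatocyte-like cells stood at 5.58, 3.34, 6.19 and 4.82 CPM in suffixes 1 to 4. The log2 ratio to early spermatocyte-like cells was -2.38, but -0.25 as a mean over cells and -0.58 with cells gated 1 by 1. The deepest pachytene spermatocyte-like sub-cluster, 14.7 with a median of 84585 UMI, held 1.07 CPM, and cluster 9, with a median of 1483.5 UMI, held 24.6 CPM. The markers of elongating spermatids moved with this, at 812 CPM in the first and 21753 CPM in the second. The Leydig-like clusters differed in the same way, with 8.92 CPM of Chd5 in cluster 23 (median 7694 UMI, marker sum 6133 CPM) and 70.4 CPM in cluster 22 (962 UMI, marker sum 62176 CPM). Spermatogonia-like and early spermatocyte-like cells held 27 and 25.6 CPM, or 0.172 (0.131 to 0.222) and 0.0942 (0.0631 to 0.135) UMI per cell. The early spermatocyte-like value lay at the highest somatic class of that size, so Chd5 above the somatic level was not detectable there at this depth.

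**Figure D2:**
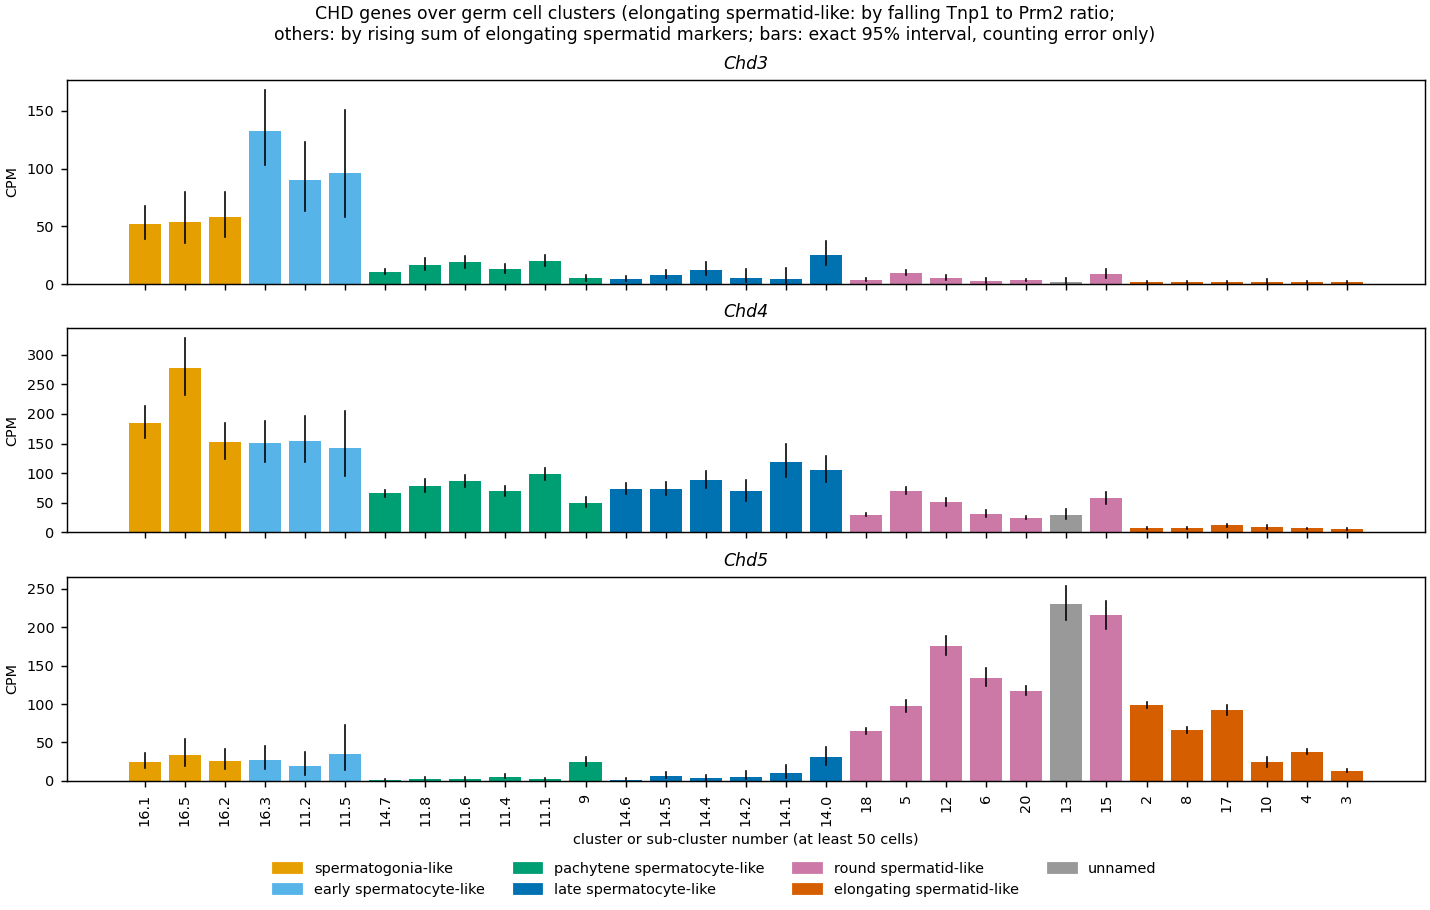
CPM of Chd3, Chd4 and Chd5 (linear axes from 0) in each germ cell cluster or sub-cluster of at least 50 cells, coloured by class, with exact 95% intervals for counting error. Clusters other than elongating spermatid-like ones are ordered within their class by the elongating spermatid markers, and elongating spermatid-like ones by falling Tnp1 to Prm2 ratio. Chd3 peaks in early spermatocyte-like sub-clusters, Chd4 in spermatogonia-like sub-cluster 16.5 at 277 CPM, and Chd5 in clusters 13 and 15 at 231 and 215 CPM.

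Chd4 and Chd3 each encode an ATPase of the NuRD complex, which joins remodelling to histone deacetylation. Chd4 (ENSMUSG00000063870, chromosome 6, 125095981 to 125130591, plus strand) stood at 189, 188, 189 and 217 CPM in spermatogonia-like cells of suffixes 1 to 4. It was at 133, 144, 170 and 152 CPM in early spermatocyte-like cells, below the spermatogonia-like value of the same suffix in each. The level then lay at 75.2 CPM in pachytene and 79.3 CPM in late spermatocyte-like cells, which differed by a log2 ratio of 0.08 (-0.04 to 0.20). It was 37.7 CPM in round spermatid-like cells, 2.1-fold lower than in late spermatocyte-like cells, and 7.52 CPM in elongating spermatid-like cells, 5.01-fold lower than in round ones. Without suffix 3 the first of these differences fell just under 2-fold. Leydig-like cells held 124 CPM (112 to 137), the highest level among somatic classes of at least 50 cells, and Sertoli-like cells 25.4 CPM.

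Among spermatogonia-like sub-clusters Chd4 was 277 CPM in sub-cluster 16.5 and 185 CPM in 16.1, a log2 ratio of 0.58 (0.25 to 0.91), higher in 4 of 4 suffixes. Sub-cluster 16.5 also held more Parp1, at 362 CPM against 231 CPM, and less Top2a, at 117 CPM against 314 CPM. Each of these differences went the same way in all 4 suffixes. These sub-clusters, like the other clusters described singly, were singled out after their values had been seen.

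Chd3 (ENSMUSG00000018474, chromosome 11, 69343273 to 69369406, minus strand) was at 101, 120.1, 135 and 88.9 CPM in early spermatocyte-like cells. It was at 55.4, 52.3, 51 and 58.8 CPM in spermatogonia-like cells, so the suffixes did not overlap. The log2 ratio was 1.02 (0.65 to 1.40), close to the 2-fold limit, and it fell to 0.98 without suffix 2 and 0.86 without suffix 3. In pachytene spermatocyte-like cells Chd3 was 7.83-fold lower than in early ones, at 16.6, 12.7, 14.7 and 12.6 CPM. From there it lay at 8.39 CPM in late spermatocyte-like cells, 4.86 CPM in round spermatid-like cells and 1.84 CPM in elongating spermatid-like cells. The step from pachytene to late spermatocyte-like cells, at -0.75, passed 2-fold at -1.01 without suffix 2. As a mean over cells there was no fall in this step, with 8.86 CPM in pachytene and 9.16 CPM in late spermatocyte-like cells. Among somatic classes of at least 50 cells, interstitial mesenchymal-like cells were highest at 35.9 CPM. The 39 peritubular myoid-like cells, too few to be compared, held 25 UMI of Chd3, or 185 CPM (119.6 to 273).

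Smarca4 and Smarca5 encode BRG1, an ATPase of SWI/SNF complexes, and SNF2H, the ATPase of most ISWI complexes. Smarca5 (ENSMUSG00000031715, chromosome 8, 80698507 to 80739497, minus strand) stood at 608, 610.01, 583 and 593 CPM in early spermatocyte-like cells. It was at 423, 443, 471 and 472 CPM in spermatogonia-like cells, below every early spermatocyte-like value, although the difference was 1.32-fold. In pachytene spermatocyte-like cells it was at 135, 106, 120.4 and 112 CPM, 5.06-fold lower than in early ones. Late spermatocyte-like cells held 96.9 CPM, round spermatid-like cells 57.9 CPM and elongating spermatid-like cells 4.58 CPM, the last step being 12.6-fold. Within round spermatid-like cells Smarca5 ran from 126 CPM in cluster 5 to 14.8 CPM in cluster 20, an 8.54-fold difference seen in 4 of 4 suffixes. Somatic classes of at least 50 cells lay between 53.3 CPM in macrophage-like and 75.9 CPM in interstitial mesenchymal-like cells.

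Smarca4 (ENSMUSG00000032187, chromosome 9, 21616169 to 21704230, plus strand) stayed, in sums over cells, within 2-fold of the class before through the spermatocyte classes. As a mean over cells it was at 204 CPM in early and 84.9 CPM in pachytene spermatocyte-like cells, more than 2-fold apart. In sums the levels were as follows. Smarca4 was at 164 CPM in spermatogonia-like cells, and at 187 CPM in early, 125 CPM in pachytene and 95.8 CPM in late spermatocyte-like cells. Early spermatocyte-like and spermatogonia-like cells differed by a log2 ratio of 0.196 (-0.056 to 0.445), and in suffix 1 both stood at 156 CPM. In late spermatocyte-like cells the suffixes stood at 107, 92.3, 93.5 and 95 CPM. In round spermatid-like cells they stood at 10.5, 13.3, 15.4 and 14.7 CPM, so the groups lay far apart and the log2 ratio was -2.84 (-2.98 to -2.70), or 7.16-fold lower. Cluster 5 of the round spermatid-like cells still held 41.2 CPM, while cluster 20 held 2.25 CPM, an 18.3-fold difference. Cluster 5 also had high late spermatocyte markers, with a score of 1.24 beside 1.54 for round spermatids, and the part of these markers in its Smarca4 level was not tested. Elongating spermatid-like cells held 2.4 CPM.

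The type II topoisomerase genes followed different courses. TOP2A acts in dividing cells, where it untangles sister chromosomes, and TOP2B is the isoform that non-dividing cells also make. The 250 bases before each start are shown because these paralogues differ in pattern. They lie at chr11:99024190-99024439 on the minus strand for Top2a and at chr14:16364956-16365205 on the plus strand for Top2b (RefSeq, GRCm38.p6). Capitals mark CCAAT boxes (CCAAT or ATTGG) and GC boxes (GGGCGG or CCGCCC), which do not overlap.
Top2a: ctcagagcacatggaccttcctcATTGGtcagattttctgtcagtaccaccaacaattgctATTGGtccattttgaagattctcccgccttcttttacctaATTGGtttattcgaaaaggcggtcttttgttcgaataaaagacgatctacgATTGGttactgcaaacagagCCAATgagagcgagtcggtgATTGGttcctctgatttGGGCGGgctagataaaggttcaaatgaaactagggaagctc
Top2b: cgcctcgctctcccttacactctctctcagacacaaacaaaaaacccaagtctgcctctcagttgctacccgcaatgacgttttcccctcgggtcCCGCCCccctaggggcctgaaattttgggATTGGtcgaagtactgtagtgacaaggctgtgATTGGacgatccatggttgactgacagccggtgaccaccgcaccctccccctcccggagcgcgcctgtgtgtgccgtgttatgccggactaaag
The Top2a window held 6 CCAAT boxes and 1 GC box, and the Top2b window 2 CCAAT boxes and 1 GC box. At least 6 CCAAT boxes were found in 19 of 32851 promoter windows, or 0.0578%. Of the 9 members with a window in the table, 3 held CCAAT, against 37.5% of all genes, and 8 held a GC box, against 35.4% of all genes.

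Top2a (ENSMUSG00000020914, chromosome 11, 98992943 to 99024189, minus strand) was at 409, 399, 465 and 530.3 CPM in early spermatocyte-like cells. It was at 262, 230.1, 262 and 316 CPM in spermatogonia-like cells, below every early spermatocyte-like suffix, a difference of 1.7-fold. The ratio passed 2-fold under 4 other ways of grouping the cells, with log2 ratios from 1.27 to 1.58. Pachytene and late spermatocyte-like cells held 76.6 and 81.9 CPM, and their suffixes overlapped. Round spermatid-like cells held 18.8 CPM, 4.36-fold less than late spermatocyte-like cells, and elongating spermatid-like cells 1.75 CPM, 10.7-fold less again. In early spermatocyte-like sub-clusters Top2a ran from 281 CPM in 11.2 to 645 CPM in 11.5. Leydig-like cells, with 6.47 CPM (3.95 to 10), were lowest of the somatic classes of at least 50 cells, and macrophage-like cells were highest at 33.7 CPM (21.6 to 50.1).

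Top2b (ENSMUSG00000017485, chromosome 14, 16365179 to 16435462, plus strand) was at 84.5, 96.1, 64.1 and 56 CPM in early spermatocyte-like cells. In spermatogonia-like cells it was at 27.7, 16.7, 15.3 and 9.19 CPM, so the suffixes did not overlap and the log2 ratio was 2.08 (1.51 to 2.67). Pachytene spermatocyte-like cells held 52 UMI in 1779 cells, or 4.18, 0.796, 2.18 and 1.89 CPM. That was 32.9-fold lower than in early spermatocyte-like cells. Its sub-clusters ran from 25.7 CPM in the 31 cells of sub-cluster 11.9 and 6.26 CPM in 11.1 to 0 in 11.8 and 14.7, which had median depths of 49186 and 84585 UMI. Late spermatocyte-like cells held 1 UMI in 768 cells, round spermatid-like cells 9 UMI in 6110 and elongating spermatid-like cells 6 UMI in 9022. The ratio of late to pachytene spermatocyte-like cells, -4.61 (-9.94 to -2.07), rests on that 1 UMI, and the pair held fewer than 50 UMI with any 1 suffix left out. Somatic cells held Top2b, with 51.9 CPM in interstitial mesenchymal-like, 30.1 CPM in Leydig-like, 11.2 CPM in macrophage-like and 6.45 CPM in Sertoli-like cells. The early spermatocyte-like and interstitial mesenchymal-like levels could not be told apart by counting error, at a log2 ratio from -0.15 to 1.19. Top2b overlaps Rarb on the opposite strand, a gene with 103 UMI in all kept cells, and the sources used here do not give whether counting used strand.

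**Figure D3:**
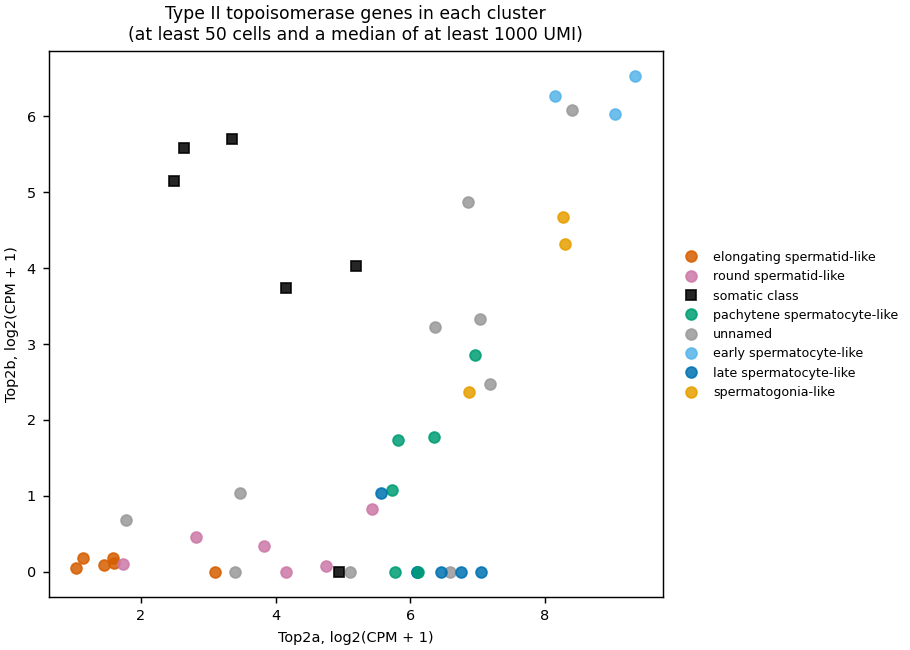
Top2a (horizontal) and Top2b (vertical) as log2(CPM + 1) in each cluster or sub-cluster of at least 50 cells and a median of at least 1000 UMI, coloured by class, with somatic clusters as black squares. Early spermatocyte-like sub-clusters are high for both genes, late spermatocyte-like sub-clusters hold Top2a with Top2b at or near 0, and the Leydig-like and interstitial mesenchymal-like clusters hold Top2b with little Top2a.

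In CPM, Parp1, Parp2 and Parg were highest in spermatogonia-like cells among classes of at least 50 cells, for Parp2 and Parg not beyond counting error. Parp1 was first called lower in early spermatocyte-like cells, and Parp2 and Parg in pachytene spermatocyte-like cells. Parp1 (ENSMUSG00000026496, chromosome 1, 180568924 to 180601254, plus strand) encodes the main writer of poly(ADP-ribose). It was at 253, 312, 212 and 272 CPM in spermatogonia-like cells and at 52, 86.5, 106 and 69.2 CPM in early spermatocyte-like cells. The suffixes did not overlap, and the log2 ratio was -1.74 (-2.08 to -1.41), or 3.34-fold lower. At resolution 0.5 it was -0.95, under 2-fold. Early, pachytene and late spermatocyte-like cells held 77.8, 66.2 and 54.6 CPM, with no step of 2-fold. Round spermatid-like cells held 25.1 CPM, a log2 ratio of -1.12 to late spermatocyte-like cells that missed 2-fold under 8 other settings, at -0.69 to -0.93. Elongating spermatid-like cells held 2.19 CPM, 11.5-fold less than round ones. Within round spermatid-like cells it was 56.1 CPM in cluster 12 and 6.83 CPM in cluster 15, an 8.21-fold difference seen in 4 of 4 suffixes. In these clusters Chd5 was at 176 and 215 CPM. The thinned share of cells with a Parp1 UMI was 24% of spermatogonia-like, 6.62% of early spermatocyte-like and 4.11% of Sertoli-like cells, and 67.3%, 21.1% and 4.4% unthinned.

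Parp2 (ENSMUSG00000036023, chromosome 14, 50807841 to 50821301, plus strand) encodes the second break-dependent writer. Spermatogonia-like and early spermatocyte-like cells held 67.2 and 63.6 CPM, a log2 ratio of -0.08 (-0.51 to 0.34). In pachytene spermatocyte-like cells it was 4.48-fold lower, at 15, 13.1, 15.1 and 13.8 CPM, against 74.7, 48, 70.5 and 56 CPM in early ones. Between pachytene sub-clusters it ran from 66.9 CPM in the 31 cells of 11.9 to 4.69 CPM in 14.7. It was 9.76 CPM in late spermatocyte-like, 4.77 CPM in round spermatid-like and 0.418 CPM in elongating spermatid-like cells. The step from late spermatocyte to round spermatid, at -1.03, was -0.92 without suffix 1.

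Parg (ENSMUSG00000021911, chromosome 14, 32201949 to 32297550, plus strand) encodes the main eraser. It was at 55.4, 58.6, 40.8 and 55.1 CPM in spermatogonia-like cells and at 26, 52.8, 38.5 and 39.5 CPM in early spermatocyte-like cells. It was lower at each following step, at 13.3 CPM in pachytene and 4.2 CPM in late spermatocyte-like cells and 0.658 CPM in round spermatid-like cells. These steps were 2.86-fold, 3.17-fold and 6.38-fold. Elongating spermatid-like cells held 14 UMI in 9022 cells, or 0.183 CPM (0.1 to 0.307). In pachytene spermatocyte-like cells the suffixes stood at 17.8, 9.71, 11.3 and 14.6 CPM, on 102, 61, 62 and 85 UMI. This was the widest spread of the 6 members with at least 100 UMI in 1 suffix there. The highest was 1.83 times the lowest, against a median of 1.22 and a 90th percentile of 1.57 over 6015 genes. Parg passed the limit of 100 UMI only through its highest suffix. Genes were not matched for UMI count, so the ratio does not set Parg apart, and the part of counting error was not tested. Parg overlaps the antisense gene Gm17210, which had 22 UMI.

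Neighbouring germ cell classes were compared over all genes with at least 50 UMI in the pair. The call of higher or lower needed a ratio of 2-fold or more over the pooled cells, with the same sign within each of the 4 suffixes. Between spermatogonia-like and early spermatocyte-like cells, 2 of 10 members were higher in the latter, Chd3 and Top2b, and 1 was lower, Parp1. Of 7801 genes 13.7% were higher and 13.8% lower. Between early and pachytene spermatocyte-like cells 7 of 10 were lower and none higher, against 35.5% lower and 23% higher of 10508 genes. The members had a median log2 ratio of -2.25 there, and all genes -0.42. Relative to that median, the same number of members was lower. Chd4, at 75.2 against 150.2 CPM, was just short of the call, and it passed at -1.12 without suffix 1. As a mean over cells Chd4 was at 65.2 against 149 CPM, and Smarca4 at 84.9 against 204 CPM, each more than 2-fold lower.

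Between pachytene and late spermatocyte-like cells 2 of 10 members were lower, Top2b and Parg, and none higher, while 15.8% of 10921 genes were lower and 14.1% higher. Chd5 was at 0.53 (0.10 to 0.96) in this step, and was called higher under 7 other ways of grouping the cells, at 1.23 to 4.09. Between late spermatocyte-like and round spermatid-like cells 6 of 9 members with enough UMI were lower, and Chd5 was higher, against 28.6% lower and 33.9% higher of 13060 genes. Relative to the median gene, which lay at -0.25, 3 of these were lower, Smarca4, Top2a and Parg.

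Between round and elongating spermatid-like cells 7 of 8 members with enough UMI were lower and none higher, against 68.8% lower and 6.97% higher of 13532 genes. That count is close to the share of all genes. The median gene lay at -1.96. Relative to it 4 members were lower, Smarca5, Top2a, Parp1 and Parp2, and Chd5 was higher, at 1.22. Chd3 turned direction on that scale, at 0.56, as did Parg at 0.11. Per cell, Chd4 had 0.3 UMI in round and 0.0638 UMI in elongating spermatid-like cells, and Smarca5 had 0.46 and 0.0389, at median depths of 3113.5 and 6448.5 UMI.

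**Figure D4:**
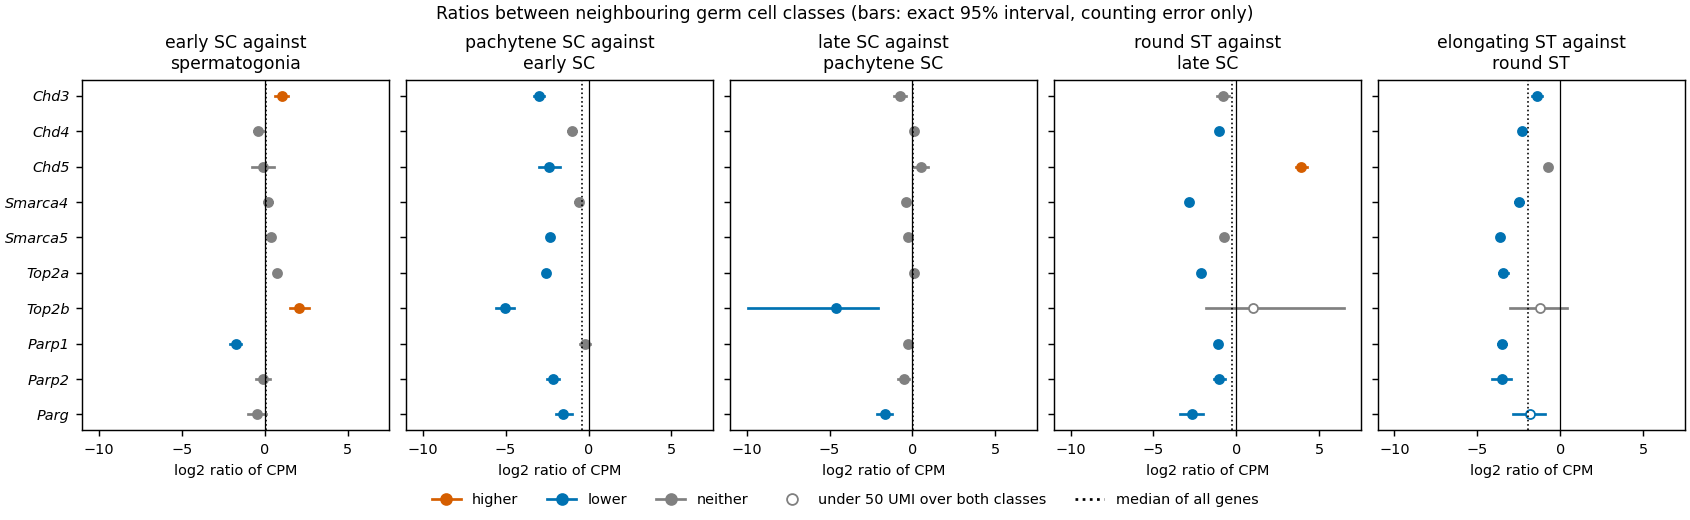
Log2 ratio of CPM of each gene (horizontal) between neighbouring germ cell classes, 1 panel per step, with exact 95% intervals for counting error. Orange marks genes called higher, blue genes called lower, grey neither, open points under 50 UMI over both classes, and the dotted line the median of all genes. Chd5 is the 1 member called higher between late spermatocytes and round spermatids, at 3.92, and in the last panel the median of all genes lies at -1.96.

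The partners of these enzymes were followed through 6 lists with 109 gene symbols, of which 106 were found. In early spermatocyte-like cells, against spermatogonia-like cells, 8 of 85 genes with enough UMI were higher and 11 lower, against 13.7% and 13.8% of all genes. The list of topoisomerases and adduct repair had 3 of 11 higher, including Spo11, which makes the meiotic breaks, at 119 CPM against 4.11 CPM, a log2 ratio of 4.86. Gm960, the partner of Spo11 in that reaction, was at 2.30 and Arid2, a subunit of the PBAF form of SWI/SNF, at 2.63. In the list of PARP genes, readers and removal of ADP-ribose, 4 of 14 were lower and 2 higher. Aplf, a reader of ADP-ribose, was at -1.65, Adprhl2, which removes ADP-ribose from serine, at -1.47, and the mitochondrial topoisomerase Top1mt at -1.46.

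In pachytene spermatocyte-like cells 39 of 91 genes were lower than in early ones and 10 higher, against 35.5% and 23% of all genes. The CHD and NuRD list had 9 of 18 lower, and the INO80, SRCAP and other SNF2 list 9 of 17. Atrx, an X-linked SNF2 protein, was at -8.98 on 2 UMI, X-linked Rbbp7 of NuRD at -7.36 and Chd6 at -5.51. Chd6 lies on chromosome 2. None of the 10 members lies on the X chromosome, against 4 of the 106 genes. X-linked genes are known to be silenced in pachytene spermatocytes, and the part of this in these ratios was not tested. Of the higher genes, Chrac1 of the ISWI complex CHRAC was at 2.51, Smarca2, the paralogue of Smarca4, at 2.28 and Znhit1 of the SRCAP complex at 2.09. Smarca2 stood at 77.1 CPM in pachytene and 15.9 CPM in early spermatocyte-like cells, while Smarca4 stood at 125 and 187 CPM.

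In late spermatocyte-like cells 19 of 85 genes were lower than in pachytene ones and 4 higher, against 15.8% and 14.1% of all genes. Aplf, Topbp1 and Parp12 were lowest at -3.14, -3.13 and -2.77, and Dpf3 and Bcl7c of SWI/SNF and Parp10 were highest at 1.72, 1.11 and 1.54. In round spermatid-like cells 35 of 88 were lower than in late spermatocyte-like cells and 13 higher, against 28.6% and 33.9% of all genes. The CHD and NuRD list of 19 held 6 of the higher genes, near the 33.9% of all genes. Mbd3l1, a testis relative of Mbd3, was at 4.44 and Chd6 at 3.13. Top1mt was at 3.02. In the topoisomerase list 8 of 11 were lower, with Top3a at -3.34, and Actr5 of INO80 and Bcl7b of SWI/SNF were at -3.27 and -3.19.

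In elongating spermatid-like cells 77 of 89 genes were lower than in round ones and 4 higher, against 68.8% and 6.97% of all genes. The median of the lists was -2.73, and that of all genes -1.96. Chd8, Gatad2b of NuRD and Pbrm1 of PBAF were lowest at -5.50, -4.98 and -4.65. The SWI/SNF list held 3 of the 4 higher genes, Smarcd3 at 3.26, Bcl7a at 2.34 and Arid1b at 1.34.

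**Figure D5:**
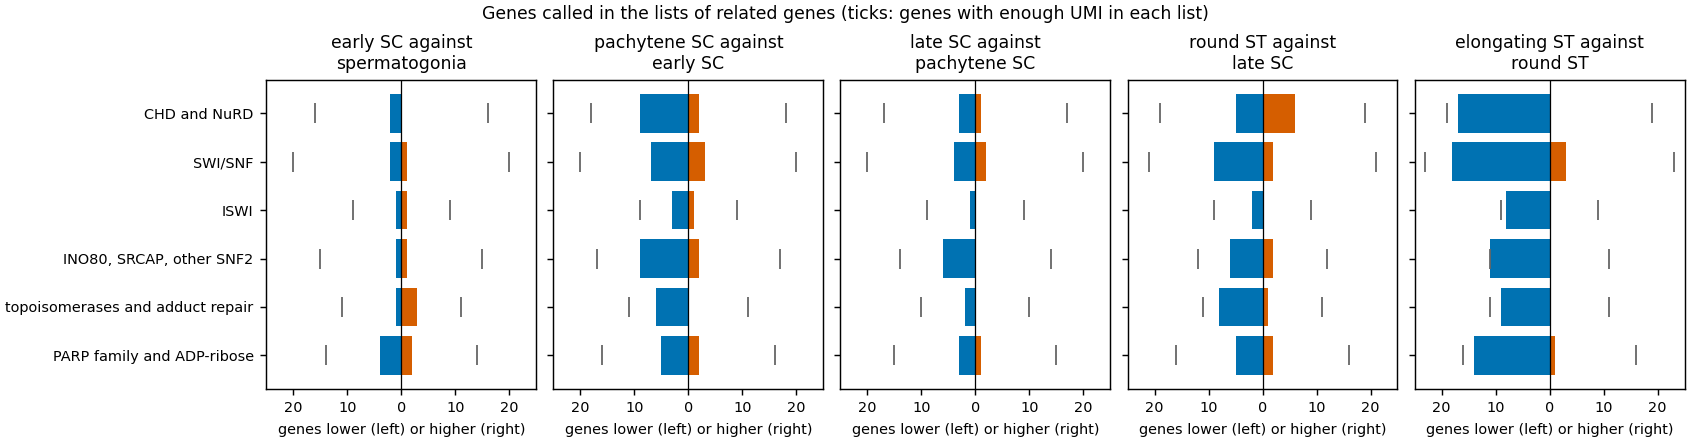
Number of genes of each related list called lower (blue, left of 0) or higher (orange, right of 0) between neighbouring germ cell classes, 1 panel per step. Grey ticks mark the number of genes with enough UMI in the list. In the last panel 77 of 89 genes are lower, where 68.8% of all genes are.

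The members' patterns were also compared over 46 clusters and sub-clusters of at least 50 cells and a median of at least 1000 UMI, as Pearson correlations of log2(CPM + 1). These points share libraries, free RNA and the clustering, so the values are descriptions. Smarca5 and Top2a were the most alike pair of members, with r = 0.93, followed by Parp2 with Parg, r = 0.92. Chd5 was unlike the others, with r of -0.26 to Chd3 and -0.37 to Chd4. Of 10992 genes with at least 500 UMI, Chd5 was nearest to Col22a1 (r = 0.95) and Cldnd2 (0.94). Chd3 was nearest to Ttc3 and Nfyc (both 0.93), and Chd4 to Trip11 (0.95) and Ddost (0.94). Smarca4 was nearest to Noc4l (0.97) and Cdc5l (0.96), and Smarca5 to Ppil4 (0.98) and Pak1ip1 (0.97). Top2a was nearest to Slc25a31 and Taf11 (both 0.96), Parp1 to Gtpbp4 (0.95) and Psmb5 (0.94), Parp2 to Luc7l and Uhrf2 (both 0.96), and Parg to Polr2d and Polr2b (both 0.96). Top2b had fewer than 500 UMI, so no such genes are given for it.

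The spread between libraries was taken as the highest suffix divided by the lowest. In round spermatid-like cells the highest suffix was 1.22 to 1.48 times the lowest over the 6 members with at least 100 UMI in 1 suffix, with a median of 1.42. The median of 7963 genes there was 1.24. In elongating spermatid-like cells Smarca5 stood at 3.26, 6.72, 4.27 and 4.5 CPM, a ratio of 2.06, against a median of 1.24 and a 90th percentile of 1.62 over 5865 genes. These levels rest on 61, 104, 91 and 95 UMI, so Smarca5 passed the limit of 100 UMI only through its highest suffix. The genes were not matched for UMI count, so the ratio does not set Smarca5 apart. The part of counting error in it was not tested. Chd5 in the same cells had a ratio of 1.25. In spermatogonia-like cells the widest member was Parp1 with 1.47, at a median of 1.21 over 1176 genes.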

How the data were processed

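The authors deposited UMI counts per gene and cell barcode, made with Cell Ranger 3.0.2 per the file headers, and with bcl2fastq 2.19.1.403 and build mm10 per the submitters' processing notes. The annotation release and the use of strand are not given in the sources used here. Barcodes passed with 500 or more genes detected and no more than 10% of UMI mitochondrial (29968), Scrublet marked 1 (0.00334%, so it did not work), and 29967 were clustered with scanpy 1.11.5 and leidenalg 0.10.2 (2000 variable genes, 30 components, 15 neighbours, resolution 1). The 28 clusters, of which 5 were split, gave 63 units, named from 14 marker lists by scores. The naming and splitting rules were set after the clusters had been seen. The members and gene lists were chosen with earlier results of these data known. Related genes named were, per step, up to 3 called with the highest and 3 with the lowest ratio. Counts were summed over cells. Intervals are exact Poisson, Clopper-Pearson or conditional binomial, at 95%, computed with scipy 1.17.1. In a simulation with counting error only, 200 well-counted genes were changed well beyond the 2-fold limit of the call, so high recovery was to be foreseen. The call rule recovered 100% of them between early spermatocyte-like and spermatogonia-like cells, with 23 false calls among 7489 genes. Smaller changes, such as those just over 2-fold, and variation between libraries or cells were not simulated, so recovery in the real data is not known. The genotypes, unlinked to suffixes, were not compared.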

Additional observations from a re-analysis of the deposited data

How the results depend on the processing

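No paired analysis was possible because no label ties a barcode suffix to a sample or a replicate number, and the planned genotype fits were not run for the same reason. Of 26 calls of higher or lower, other settings kept from 19 (relative to the median gene, and with cells gated 1 by 1) to 26. Between spermatogonia-like and early spermatocyte-like cells, 2 members higher became 1 with list genes allowed in the clustering and relative to the median gene, and 0 with cells gated 1 by 1, and 1 to 2 with 1 suffix left out. The 1 lower became 0 at resolution 0.5, and 2 with at least 1000 detected genes, with the marked doublet kept and with gated cells. Between pachytene and late spermatocyte-like cells, 0 higher became 1 at resolutions 0.5 and 2, at a mitochondrial limit of 20%, with 1000 genes, with list genes, with the doublet kept, and in clusters with a median of 2000 UMI or more, a setting chosen after seeing the data. In each the gene was Chd5. The 2 lower became 5 at resolution 0.5, 1 with 1000 genes, the doublet kept or gated cells, and 1 to 2 with 1 suffix left out. Between late spermatocyte-like and round spermatid-like cells, 1 higher became 0 at resolution 0.5, and 6 lower became 3 relative to the median gene. Between round and elongating spermatid-like cells, that scaling gave 1 higher in place of 0 and 4 lower in place of 7. There Parg turned to 0.11 and Chd3 to 0.56, and Parg was 0.22 at resolution 0.5. The cause of these shifts was not tested. The ratios of Top2b in the last 2 steps, and of Parg in the last step, rest on fewer than 50 UMI.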
